A study of Mus musculus with 12 samples.

Results

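The genes described here are the members of the tumour necrosis factor (TNF) superfamily, the TNF receptor superfamily and the signalling adaptors that serve them, on a NanoString panel of immune genes. They were chosen by symbol: every gene of the table whose name starts with Tnfrsf, Tnfsf, Tnfaip or Traf, together with Lta, Ltb, Ltbr, Cd27, Cd40, Cd40lg and Cd70, and without Tnfrsf4, Tnfrsf9, Tnfrsf10b, Tnfrsf18 and Tnfsf10. This gave 30 of the 750 genes: 13 receptors, 13 ligands, the 3 adaptors Traf2, Traf3 and Traf6, and Tnfaip3, an inhibitor that TNF signalling induces. Levels were compared in 12 RNA samples. These were 2 of the mT3-2D line in culture, 5 subcutaneous mT3-2D tumours from immunocompetent WT hosts and 5 from immunodeficient SCID hosts. The line derives from the KPC mouse, a genetic model of pancreatic cancer. The labels name no mouse strain, SCID allele, age or treatment, and all tumours carry the same line. Mature T and B lymphocytes are missing in SCID mice, while NK and myeloid cells remain. Nothing in the labels ties each tumour to its own mouse, and numbers in the titles are shared by 3 WT tumours and by 2 pairs of SCID tumours. The p-values therefore describe the scatter among these samples, which may in part be technical.

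Most ligands of the TNF superfamily are trimers on the surface of activated lymphocytes and myeloid cells, and they act by clustering their receptors. Receptors without a death domain recruit Traf adaptors, which pass the signal to NF-kappaB through a canonical branch (the kinase Ikbkb, the inhibitor Nfkbia and Rela) and a non-canonical one that Traf3 restrains. In tumours the family is known for T cell costimulation (Cd27, Cd40 and their ligands), for the survival of B cells (Tnfsf13b) and for the building of lymphoid tissue (lymphotoxin and its receptor Ltbr).

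Values are log2 levels of normalised signal. Because each gene has its own probe, levels were compared between samples and never between genes. Each sample held 368925 to 558445 probe counts, recovered from the deposited signal. A sample's background level was set from 33 T and B cell genes measured in the cultured line, as described under processing, and lay between 4.73 and 5.69 on the log2 scale. WT tumours 2 and 3 had nearly the same counts (chi-square per degree of freedom 1.20, p = 0.000127, where other tumour pairs of a group gave values from 17.1 to 84.5). They differed by little more than counting noise although their titles carry different numbers, and they were averaged, which leaves n = 4 WT tumours, although all 5 values are printed. The 4 epithelial genes were all above background in the line and in both tumour groups. Of 19 T cell genes, 11 were above background in at least 1 WT tumour and 2 (Thy1 and Sh2d1a) in at least 1 SCID tumour, with Cd3e among those at background in SCID tumours. Cd3d and Cd28 were above background in the line. Of 11 B cell genes, Blnk was the 1 above background in any sample. These are whole tumours, so fewer cells of a type and less RNA per cell cannot be told apart.

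Of the 30 members, 9 were above background in all 12 samples: the receptors Ltbr, Tnfrsf12a, Tnfrsf1a and Tnfrsf1b, the ligand Tnfsf12, the adaptors Traf2, Traf3 and Traf6, and Tnfaip3. The line had 10 members above background in both samples, these 9 and Tnfrsf11a. Tnfrsf14 was at background in the line and above it in every tumour of both hosts. Another 14 members were at background in all 12 samples: Cd27, Cd40lg, Lta, Tnfrsf8, Tnfrsf11b, Tnfrsf13b, Tnfrsf13c, Tnfrsf17, Tnfsf4, Tnfsf8, Tnfsf13, Tnfsf13b, Tnfsf15 and Tnfsf18. Their levels ran from 2.45 to 5.49 in tumours and from 1.10 to 4.12 in the line. Many of them are lymphocyte genes: Tnfrsf13b, Tnfrsf13c and Tnfrsf17 encode the B cell receptors for Tnfsf13b (BAFF), and Cd40lg is the T cell ligand that activates Cd40. With the background set at the 90th instead of the 95th percentile, 8 members were at background in all samples.

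The question the series poses is how tumours of the same line differ between WT and SCID hosts. In SCID tumours 7 of the 30 members (23.3%) were lower and 0 were higher, where 15.7% of all 750 genes were lower and 0.133% were higher (limma, Benjamini-Hochberg adjusted p under 0.05 over all genes). The 7 were the receptors Tnfrsf14, Tnfrsf1b and Cd27, the ligands Ltb, Tnfsf14 and Tnfsf13b, and Tnfaip3. Cd27 and Tnfsf13b passed with all tumours at background. The median log2 change over the 30 members was -0.27, and over all genes it was -0.33. With WT tumours 2 and 3 averaged, the values of the 2 tumour groups did not overlap in a partly different set of 7 members. These were Tnfrsf14, Tnfrsf1b, Cd27, Ltb, Tnfsf13b, Traf2 and Traf3, all lower in SCID tumours. In 0 members did the groups separate with SCID tumours higher. Over all genes these shares were 15.7% and 0.267%. Scaling each sample to its median gene left 1 member lower and 1 higher (37 and 49 of all genes), and TMM scaling left 2 lower and 0 higher (56 and 8 of all genes). These scalings moved the median change of all genes to 0.28 and -0.01. Scaling to 47 widely expressed genes left 5 members lower and 0 higher (95 and 1 of all genes). Unscaled counts also left 5 lower and 0 higher (77 and 1 of all genes). Without WT tumour 5 the count of lower members was 3.

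**Figure D1:**
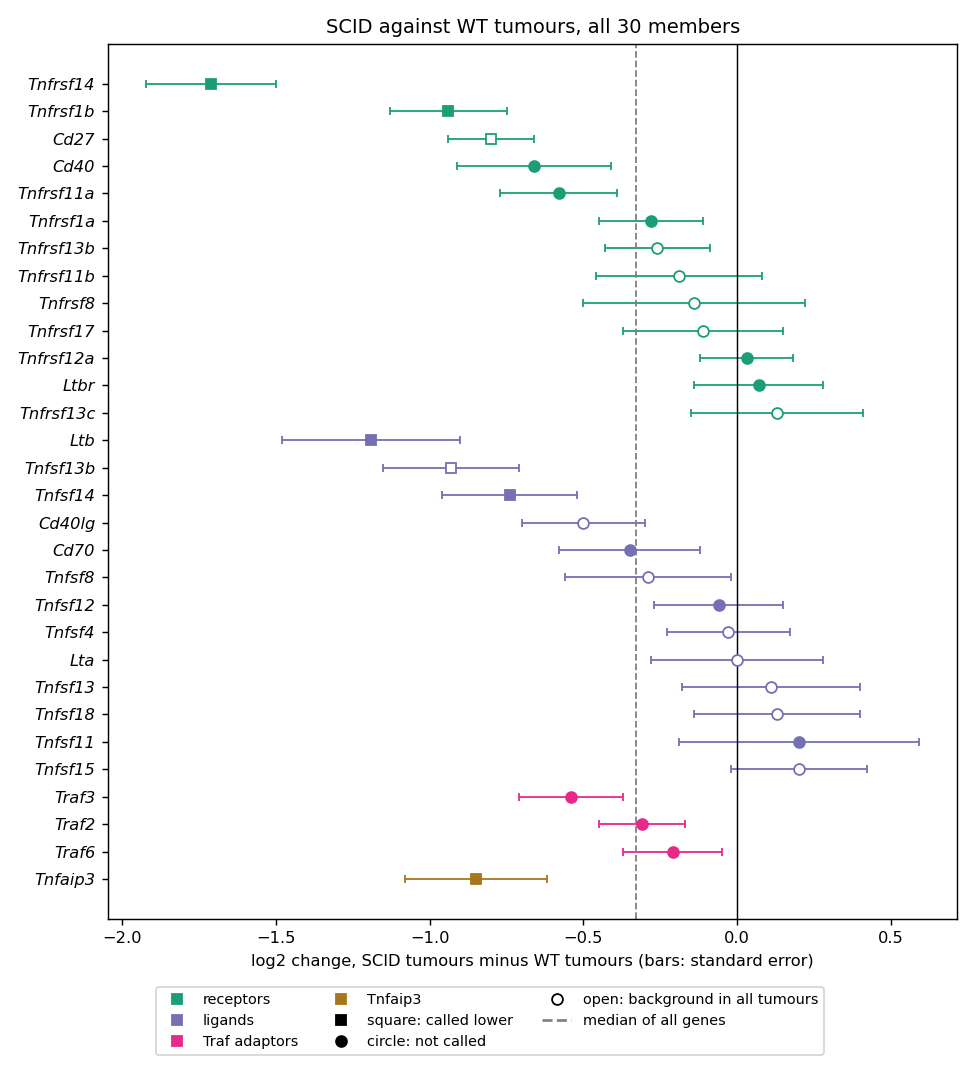
Log2 change from WT to SCID tumours of all 30 members with its standard error, by role. Squares mark the 7 members called lower, open symbols the members at background in all tumours, and the dashed line the median of all genes (-0.33). Tnfrsf14 lies farthest to the left at -1.71, while Ltbr and Tnfrsf12a lie near 0. The positions are those of the deposited scaling, and scaling to the median gene shifts all of them to the right.

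Among the receptors, Tnfrsf14 (HVEM), which binds the ligand Tnfsf14 and the inhibitory receptor Btla, had the largest change of the members. Its log2 level was 7.33, 7.33, 7.57, 7.07 and 7.94 in WT tumours 1 to 5. In SCID tumours 1 to 5 it was 5.40, 5.67, 5.72, 5.86 and 6.06, and in the line 2.69 and 2.80. Every SCID tumour was below every WT tumour, and both line samples lay below background. The mean of 7.45 ± 0.36 (SD, n = 4) in WT tumours against 5.74 ± 0.25 (SD, n = 5) in SCID tumours is a 3.27-fold lower level in SCID tumours (log2 change -1.71, SE 0.21, limma adjusted p = 0.00111). The call held in 25 of 25 alternatives, with log2 changes between -1.83 and -1.10. SCID tumour 1, at 5.40, was just above its background level of 5.37.

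Tnfrsf1b (TNFR2), the TNF receptor without a death domain, found mainly on leukocytes and endothelium, was 1.92-fold lower in SCID tumours. WT tumours 1 to 5 had log2 levels of 8.02, 8.78, 8.88, 8.27 and 8.49, and SCID tumours 1 to 5 had 7.25, 7.45, 7.66, 7.61 and 7.31. The groups did not overlap (8.40 ± 0.34, n = 4, against 7.46 ± 0.18, n = 5, SD). The log2 change was -0.94 (SE 0.19, limma adjusted p = 0.00915), and it was called in 23 of 25 alternatives; TMM scaling (-0.63, adjusted p = 0.078) and median scaling (-0.34, adjusted p = 0.292) ended the call. The death domain receptor for TNF, Tnfrsf1a, which most cell types express, was not called. It stood at 9.95, 10.57, 10.61, 10.17 and 10.16 in WT tumours and at 10.10, 9.96, 10.06, 9.88 and 9.69 in SCID tumours, with overlapping groups and a log2 change of -0.28 (95% interval -0.66 to 0.10, limma adjusted p = 0.292). Whether the changes of the 2 TNF receptors differ from each other was not tested.

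The RefSeq promoters of these called receptors (assembly GRCm38.p6, 250 bases before to 50 after the annotated start, 5′ to 3′ on the gene's strand) are shown because both hold a match to the interferon-stimulated response element, searched on both strands as 2 copies of GAAA with 2 bases of any kind between them. Capitals mark matches to this element, to the gamma-activated site TTCNNNGAA on both strands, or to the NF-kappaB consensus, and no 2 marked matches overlap in the sequences printed here. The Tnfrsf14 promoter, at chr4:154928028-154928327 on the minus strand, has 1 match that begins 64 bases before the start. The Tnfrsf1b promoter, at chr4:145246821-145247120 on the minus strand, has a gamma-activated site match 181 bases and a response element match 10 bases before the start.
Tnfrsf14: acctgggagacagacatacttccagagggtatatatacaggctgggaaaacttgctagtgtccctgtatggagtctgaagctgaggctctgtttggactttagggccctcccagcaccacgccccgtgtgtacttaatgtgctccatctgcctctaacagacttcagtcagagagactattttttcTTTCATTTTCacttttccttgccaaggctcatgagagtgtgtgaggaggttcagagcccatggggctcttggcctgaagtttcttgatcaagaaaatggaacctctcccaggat
Tnfrsf1b: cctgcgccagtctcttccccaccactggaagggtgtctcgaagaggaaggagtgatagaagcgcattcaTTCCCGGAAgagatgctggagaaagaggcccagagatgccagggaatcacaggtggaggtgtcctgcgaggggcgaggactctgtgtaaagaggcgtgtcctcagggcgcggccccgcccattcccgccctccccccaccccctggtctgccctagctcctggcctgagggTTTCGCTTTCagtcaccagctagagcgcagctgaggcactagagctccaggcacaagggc
A match is a description of these letters and not a binding site. Promoter entries were found for 24 of the 30 members. The response element occurred in 4 of these 24 members (Tnfrsf14, Tnfrsf17, Tnfrsf1b and Tnfsf13b), against 3.99% of 27025 RefSeq genes with an entry. The gamma-activated site also occurred in 4 (Lta, Ltb, Tnfrsf1a and Tnfrsf1b), against 9.55% of these RefSeq genes. They are genes of the whole genome, and the share among the 750 panel genes was not computed. Of the 7 called members, 3 hold the response element, 2 the gamma-activated site and 2 the NF-kappaB consensus in at least 1 promoter entry. The called members Cd27 and Tnfsf14 hold no match to any of these.

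Cd27, a costimulatory receptor of T cells, was called lower (log2 change -0.80, SE 0.14, limma adjusted p = 0.00379) at levels that are background in every tumour. Its values were 4.54, 4.44, 4.55, 4.52 and 4.43 in WT tumours and 3.57, 3.69, 3.88, 3.59 and 3.74 in SCID tumours, which do not overlap. They correspond to 16 to 22 probe counts in WT and 11 to 16 in SCID tumours, so no fold is given. The WT values had an SD of only 0.05, and the noise of counting so few probes was not modelled. TMM and median scaling ended this call (adjusted p = 0.0956 and 0.504). Raising values to background gave -0.10 (0.484). This could not keep the call, because it replaces every value of Cd27 by its sample's background level. Its ligand Cd70 rose above background in 1 of 5 WT tumours (5.36 in WT tumour 5) and in 0 of 5 SCID tumours, and it was not called (log2 change -0.35, adjusted p = 0.316). Cd70 had 4.67, 4.96, 5.15, 4.89 and 5.36 in WT tumours and 4.36, 4.41, 4.53, 4.65 and 5.28 in SCID tumours.

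Cd40, a receptor of antigen-presenting cells that also occurs on carcinoma cells, was above background in 2 of 5 WT tumours and in 0 of 5 SCID tumours. Its log2 levels were 5.41, 4.61, 5.11, 5.13 and 6.01 in WT tumours against 4.28, 4.89, 4.47, 4.86 and 4.98 in SCID tumours. The groups overlapped and the change was not called (-0.66, SE 0.25, limma adjusted p = 0.101). Tnfrsf11a (RANK), a receptor known from osteoclasts and mammary epithelium, had 5.81, 5.76, 5.36, 6.24 and 6.14 in WT tumours and 5.11, 5.31, 5.31, 5.47 and 5.60 in SCID tumours. It missed the threshold (log2 change -0.58, SE 0.19, adjusted p = 0.0597) and passed it without WT tumour 3, SCID tumour 5 or the averaged pair (adjusted p = 0.0354, 0.043 and 0.0406).

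Ltbr and Tnfrsf12a were not called. Ltbr, the lymphotoxin beta receptor of stromal and epithelial cells, stood at 9.53, 10.08, 10.19, 10.21 and 10.15 in WT tumours. In SCID tumours it stood at 10.43, 9.97, 10.36, 9.84 and 9.76 (log2 change 0.07, 95% interval -0.41 to 0.54, limma adjusted p = 0.871). Tnfrsf12a (Fn14), the receptor of Tnfsf12, stood at 11.66, 11.57, 11.57, 11.86 and 11.58 in WT tumours and at 11.84, 11.81, 11.77, 11.59 and 11.46 in SCID tumours, with overlapping groups. Its log2 change was 0.03, with a 95% interval of -0.31 to 0.36. The remaining receptors, Tnfrsf8, Tnfrsf11b, Tnfrsf13b, Tnfrsf13c and Tnfrsf17, were at background and not called, with log2 changes from -0.26 to 0.13.

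**Figure D2:**
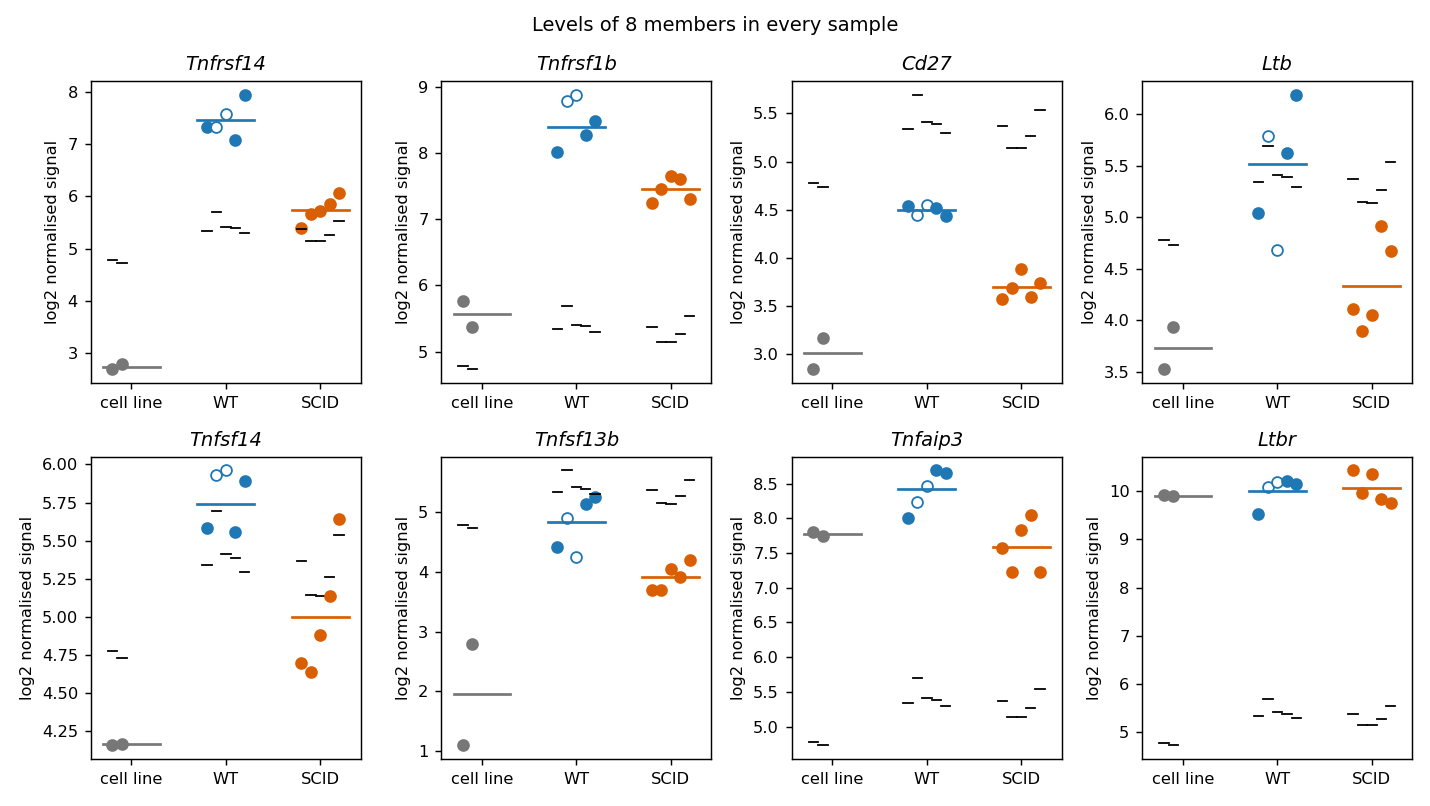
Log2 normalised signal in every sample for the 7 called members and Ltbr. Points are samples in replicate order, open circles are WT tumours 2 and 3, coloured lines are group means (with these 2 tumours averaged) and short black lines each sample's background level. Each panel has its own axis, which does not start at 0. SCID tumours lie below all WT tumours for Tnfrsf14, Tnfrsf1b and Cd27, and the Cd27 and Tnfsf13b points all lie below background.

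Of the 13 ligands, 3 were lower in SCID tumours, and 0 were higher. Ltb, which forms the membrane-bound lymphotoxin heterotrimer with Lta and is made by lymphocytes, was above background in 3 of 5 WT tumours and in 0 of 5 SCID tumours. Its log2 levels were 5.04, 5.79, 4.68, 5.62 and 6.19 in WT tumours and 4.11, 3.89, 4.05, 4.91 and 4.67 in SCID tumours. WT tumour 3, at 4.68, lay within the range of the SCID tumours, while its mean with WT tumour 2 did not. Since the SCID tumours were at background, Ltb was at least 1.17-fold lower in them (log2 change -1.19, SE 0.29, limma adjusted p = 0.02). The call did not hold when WT tumour 2, WT tumour 5 or SCID tumour 3 was left out (adjusted p = 0.0543, 0.0628 and 0.0502), nor with median scaling (0.102) or values raised to background (log2 change -0.40, 0.172). Lta itself was at background in all tumours, with a log2 change of 0.00 (adjusted p = 0.993).

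The RefSeq promoter of Ltb, at chr17:35194257-35194556 on the plus strand, and the upstream of 2 RefSeq promoters of Tnfaip3, at chr10:19015361-19015660 on the minus strand, are shown because they hold NF-kappaB consensus matches. In Ltb 1 such match begins 87 bases before the start, and a gamma-activated site match begins 172 bases before it. In Tnfaip3 the 2 consensus matches begin 125 and 12 bases before the start. Capitals mark these matches.
Ltb: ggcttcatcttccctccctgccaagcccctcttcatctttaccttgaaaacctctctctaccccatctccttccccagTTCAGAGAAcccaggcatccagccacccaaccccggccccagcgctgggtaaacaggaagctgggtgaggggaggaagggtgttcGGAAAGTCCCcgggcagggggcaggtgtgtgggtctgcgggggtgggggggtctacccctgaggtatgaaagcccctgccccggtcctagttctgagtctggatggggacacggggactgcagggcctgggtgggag
Tnfaip3: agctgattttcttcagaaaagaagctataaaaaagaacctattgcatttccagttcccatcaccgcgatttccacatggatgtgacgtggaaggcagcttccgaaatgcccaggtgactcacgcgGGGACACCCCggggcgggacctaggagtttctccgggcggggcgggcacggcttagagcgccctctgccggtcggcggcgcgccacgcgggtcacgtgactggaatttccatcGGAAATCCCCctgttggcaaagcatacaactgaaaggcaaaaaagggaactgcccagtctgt
The consensus was searched on both strands. It occurred in 4 of the 24 members with an entry (Ltb, Tnfaip3, Tnfrsf8 and Traf3) and in 9.55% of 27025 RefSeq genes with an entry. Its share among the panel genes was not computed.

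Tnfsf14 (LIGHT), a ligand of Tnfrsf14 and Ltbr made by T cells and immature dendritic cells, was lower in SCID tumours. It was above background in 5 of 5 WT tumours, at 5.58, 5.93, 5.96, 5.56 and 5.89, and in 1 of 5 SCID tumours, at 4.70, 4.64, 4.88, 5.14 and 5.64. SCID tumour 5 lay within the WT range. The log2 change was -0.74 (SE 0.22, limma adjusted p = 0.0481), and no fold is given with 4 of 5 SCID tumours at background. With values raised to background it was -0.43 (adjusted p = 0.0961). The call was lost without WT tumour 1, 4 or 5 (adjusted p = 0.0535, 0.0666 and 0.128), without SCID tumour 1, 2, 3 or 4 (0.103, 0.107, 0.101 and 0.0706) and without the averaged pair (0.107). It was also lost with widely expressed gene, TMM and median scaling and on unscaled counts (0.0602, 0.188, 0.611 and 0.0716), and it was called in 10 of 25 alternatives.

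Tnfsf13b (BAFF), the survival factor of B cells made by myeloid and stromal cells, was called lower at background (log2 change -0.93, SE 0.22, limma adjusted p = 0.0169). Its log2 levels were 4.41, 4.90, 4.24, 5.13 and 5.25 in WT tumours and 3.70, 3.69, 4.05, 3.91 and 4.19 in SCID tumours, or 17 to 37 and 12 to 18 probe counts. The groups did not overlap. The call was lost without WT tumour 5 (adjusted p = 0.0577) and with TMM and median scaling (0.0739 and 0.255). Raising values to background (-0.10, 0.484) could not keep the call, as for Cd27, because all tumours were at background.

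Tnfsf11 (RANKL), the ligand of Tnfrsf11a, was above background in 2 of 5 tumours of each host. It had 5.67, 4.68, 4.47, 4.22 and 5.5 in WT tumours and 4.36, 5.89, 5.05, 4.91 and 5.74 in SCID tumours. The log2 change was 0.20 (95% interval -0.66 to 1.06, limma adjusted p = 0.764). Tnfsf12 (TWEAK), the ligand of Tnfrsf12a, was above background in every sample and did not separate the hosts. It had 5.61, 5.79, 5.99, 6.13 and 6.01 in WT tumours and 5.47, 5.77, 5.72, 5.89 and 6.43 in SCID tumours (log2 change -0.06, 95% interval -0.53 to 0.41). The other ligands, Cd40lg, Tnfsf4, Tnfsf8, Tnfsf13, Tnfsf15 and Tnfsf18, were at background in all tumours and were not called, with log2 changes from -0.50 to 0.20. Tnfsf15 was the 1 member called higher after median scaling (log2 change 0.81, adjusted p = 0.0328).

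The adaptors were not called. Traf3, which restrains the non-canonical NF-kappaB branch, stood at 7.76, 8.16, 7.99, 8.25 and 8.06 in WT tumours and at 7.19, 7.69, 7.65, 7.53 and 7.45 in SCID tumours. These groups did not overlap, while the log2 change of -0.54 (SE 0.17, limma adjusted p = 0.0557) missed the threshold. It passed in 8 of 25 alternatives, with the replicate numbers as a block (adjusted p = 0.0402) and without WT tumour 1 (0.0341) among them. Traf2, the adaptor of TNF receptor signalling, stood at 8.18, 8.17, 8.22, 8.33 and 8.42 in WT and at 7.99, 7.87, 7.94, 8.05 and 7.99 in SCID tumours, again without overlap (log2 change -0.31, SE 0.14, adjusted p = 0.146). Traf6, which also serves Toll-like and interleukin 1 receptors, stood at 7.19, 7.61, 7.72, 7.57 and 7.64 in WT and at 7.10, 7.38, 7.31, 7.46 and 7.31 in SCID tumours, which overlap (log2 change -0.21, SE 0.16, adjusted p = 0.416). Median scaling turned the changes of Traf2 (0.29), Traf3 (0.07) and Traf6 (0.40) positive, and TMM scaling those of Traf2 (0.01) and Traf6 (0.11), without a call.

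Tnfaip3 (A20), the ubiquitin-editing enzyme that ends NF-kappaB signalling, was 1.80-fold lower in SCID tumours. It stood at 8.0, 8.23, 8.47, 8.69 and 8.66 in WT tumours and at 7.57, 7.22, 7.83, 8.05 and 7.22 in SCID tumours. SCID tumour 4 overlapped WT tumour 1, and the other SCID tumours lay below all WT tumours. The log2 change was -0.85 (SE 0.23, limma adjusted p = 0.0325). It was lost without WT tumour 4 or 5 (adjusted p = 0.0811 and 0.104), without SCID tumour 1 or 2 (0.0611 and 0.0734) and without the averaged pair (0.0641). Widely expressed gene, TMM and median scaling and unscaled counts also ended it (0.0522, 0.197, 0.52 and 0.104).

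**Figure D3:**
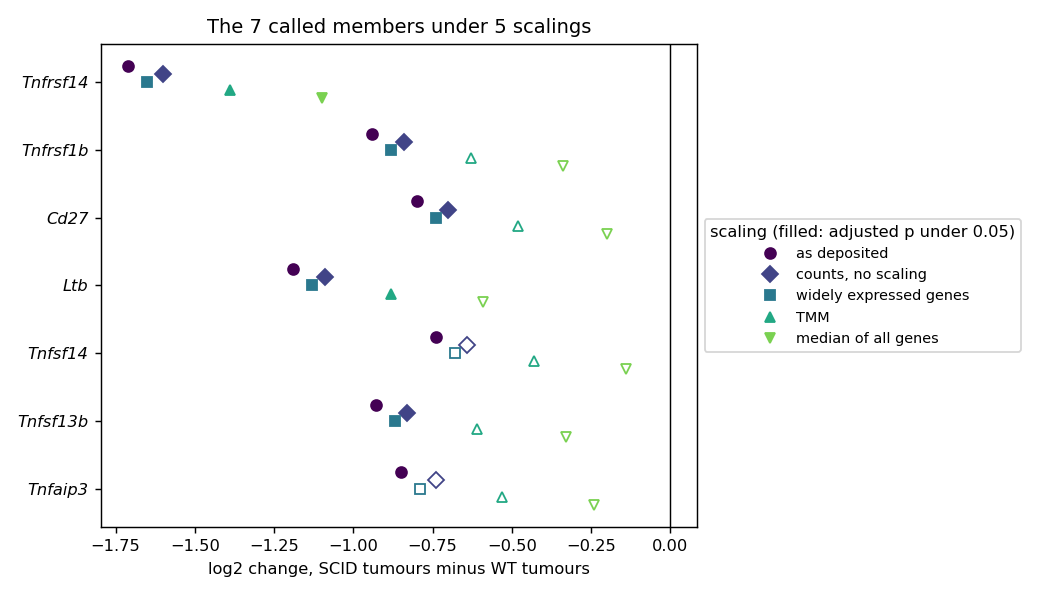
Log2 change from WT to SCID tumours of the 7 called members under the deposited scaling and 4 others, with filled symbols where the adjusted p is under 0.05. All changes stay below 0, and Tnfrsf14 is filled under all 5 scalings, from -1.71 as deposited to -1.10 with median scaling.

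Seen by ligand and receptor, the paired genes were not all called together. Ltb and Tnfsf14 were called lower in SCID tumours, Ltb with all SCID tumours at background and Tnfsf14 in only 10 of 25 alternatives. Their shared receptor Ltbr was not called, while Tnfrsf14, the other receptor of Tnfsf14, was lower. Tnfsf12 and Tnfrsf12a were both above background and neither was called. Of the TNF receptors, Tnfrsf1b was lower and Tnfrsf1a was not called. Tnf itself, chosen here as a pathway gene, was at 5.95 ± 0.59 (SD, n = 4) in WT and 4.77 ± 0.42 (SD, n = 5) in SCID tumours (log2 change -1.19, limma adjusted p = 0.0251). This SCID mean lay below the SCID tumours' background levels, which ran from 5.14 to 5.54. No test of a difference between genes was made.

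T cell markers also differed between the hosts, where 15.7% of all genes were lower. Of 19 T cell genes 11 were lower and 0 higher, and 9 of the lower genes were above background in some tumour. The log2 of the summed signal of the T cell genes was 10.01 to 11.02 in WT and 9.76 to 10.42 in SCID tumours. In SCID tumours only Thy1 and Sh2d1a of these genes were above background. Thy1 is also among the genes of fibroblasts and matrix, so this sum does not measure T cells alone. Of 12 macrophage and monocyte genes 1 was lower. The log2 of their summed signal was 11.29 to 11.90 in WT and 10.92 to 11.50 in SCID tumours, and the ranges below are of the same measure. Of 7 dendritic cell genes 1 was lower (9.02 to 9.58 against 8.14 to 9.20), and of 9 NK cell genes 2 were lower (9.29 to 9.73 against 9.16 to 10.21). Their part in the changes of Tnfrsf14, Tnfrsf1b, Ltb, Tnfsf14 and Tnfaip3 was not tested. Of 5 neutrophil genes 1 was lower (7.94 to 9.84 against 7.53 to 8.64), and of 11 B cell genes 1 was lower, at background. Calls were 0 among 7 endothelial genes, 0 among 8 genes of fibroblasts and matrix, 1 higher among 4 epithelial genes and 1 lower among 47 widely expressed genes.

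Genes of 3 pathway lists were read against the 15.7% of all genes that were lower in SCID tumours. Of 21 NF-kappaB signalling genes 1 was lower in SCID tumours, 0 were higher and 20 were not called, with a median log2 change of -0.18. That gene was Ikbke, which encodes a kinase related to the IkappaB kinases, at 7.06 ± 0.21 (SD, n = 4) in WT and 6.25 ± 0.19 (SD, n = 5) in SCID tumours (limma adjusted p = 0.00948). Of 16 targets of TNF and NF-kappaB, 2 were lower, 0 higher and 14 not called, with a median of -0.48. They were Tnf and Csf2, the gene of the growth factor GM-CSF (log2 change -0.93, adjusted p = 0.0446). Of 10 genes of lymphotoxin-dependent tissue, 1 was lower, 0 higher and 9 not called, with a median of -0.38. This was Ccl19, a chemokine of lymphoid stroma (log2 change -1.09, adjusted p = 0.0218). All SCID tumours were at background for Ccl19, with a mean of 4.72, so no fold is given. The 3 lists together hold 42 genes, of which 4 were lower. This count ranged from 1 to 7 when samples were left out, with 7 without WT tumour 1 or SCID tumour 5, 2 without WT tumour 4 or SCID tumour 2, and 1 without WT tumour 5 or the averaged pair. It was 0 after median or TMM scaling.

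Against the cultured line, as deposited, 21 of 30 members (70%) were higher in WT tumours and 18 (60%) in SCID tumours, and 0 were lower in either. Of all 750 genes, 67.1% were higher in WT tumours and 51.6% in SCID tumours, and 2.67% and 2.8% were lower (69.7% and 54.4% in either direction). With WT tumours 2 and 3 averaged, the WT tumours lay above both line samples in 22 members and below in 0, against 73.5% and 4.93% of all genes. Tnfsf13 is among the 22 only through this averaging, with 2.74 in WT tumour 3 and 3.10 in line sample 1. In 20 members all SCID tumours lay above the line and in 1, Tnfrsf11a, below it, against 60.7% and 4.93%. Both comparisons share the 2 line samples. Of the higher members, 10 in WT and 11 in SCID tumours had both groups at background and are given no fold. The median gene of the line, at 4.04 to 4.12, lay below the line's background, and the median change of all genes was 1.21 in WT and 0.81 in SCID tumours. Median scaling left 1 member higher and 24 lower in WT tumours (106 and 483 of all genes). In SCID tumours it left 1 higher and 22 lower (101 and 481). TMM scaling gave 4 higher and 4 lower in WT tumours (249 and 148 of all genes). It gave 7 higher and 3 lower in SCID tumours (212 and 119). Widely expressed gene scaling gave 17 higher and 0 lower in WT tumours (418 and 31 of all genes). It gave 13 higher and 1 lower in SCID tumours (335 and 28). Without line sample 1 or 2 the count of higher members in SCID tumours was 11 or 9.

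Tnfrsf14 was higher in tumours of both hosts under all 5 scalings. With the line at background, it was at least 6.47-fold higher in WT tumours (log2 change 4.71, SE 0.25, limma adjusted p = 5.07e-08) and at least 1.98-fold higher in SCID tumours (3.0, SE 0.25, adjusted p = 1.61e-06). Under median scaling the log2 changes were 2.10 and 1.00, both called. Tnfrsf1b, at 5.77 and 5.38 in the line, was 7.09-fold higher in WT tumours (2.83, SE 0.24, adjusted p = 1.99e-06) and 3.69-fold higher in SCID tumours (1.88, SE 0.24, adjusted p = 4.53e-05), but median scaling gave 0.22 and -0.12 without a call. Cd40 was at background in the line, at 1.84 and 2.47, and was called higher in WT tumours (log2 change 3.19, adjusted p = 6.93e-06), with no fold given because the WT mean of 5.35 lay near background. Median scaling ended this call (log2 change 0.59, adjusted p = 0.0689).

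Other members were above background in the line. Tnfrsf12a stood at 11.83 and 11.84 in the line and Ltbr at 9.93 and 9.89. Neither was called in either comparison as deposited, with log2 changes between -0.17 and 0.16, whereas TMM scaling called Tnfrsf12a lower in tumours of both hosts (-1.20 in WT and -0.85 in SCID) and Ltbr in WT tumours (-0.94). Median scaling called both lower in both hosts (Tnfrsf12a -2.77 in WT and -2.14 in SCID tumours, Ltbr -2.51 and -1.84). Tnfrsf1a rose from 9.33 and 9.22 in the line by 0.95 in WT (adjusted p = 0.00188) and 0.67 in SCID tumours (0.0161), and these changes turned to -0.09 and -0.05 with TMM scaling and to -1.66 and -1.34 with median scaling. Without line sample 1 or 2 the call of Tnfrsf1a in SCID tumours was lost (0.0683 and 0.11). Tnfrsf11a stood at 5.73 and 6.0 in the line. As deposited it was not called in WT (0.08) or SCID tumours (-0.50, adjusted p = 0.0762). TMM scaling (-0.96 and -1.22) and median scaling (-2.53 and -2.50) called it lower in both. In SCID tumours it was also called lower with widely expressed gene scaling (-0.67), values raised to background (-0.45) and unscaled counts (-1.04). Tnfaip3 stood at 7.81 and 7.74 in the line and was not called in WT (0.65, adjusted p = 0.0579) or SCID tumours (-0.20, 0.54). It was called in WT tumours without WT tumour 1 or 2 (0.0249 and 0.0486) or SCID tumour 4 (0.0456). TMM scaling called it lower in SCID tumours (-0.92, adjusted p = 0.0186), and median scaling called it lower in both hosts (-1.96 in WT and -2.20 in SCID tumours).

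Traf2, Traf3 and Traf6 stood at 7.55 and 7.45, 7.08 and 6.78, and 6.95 and 6.91 in the line. As deposited all 3 were higher in WT tumours (by 0.78, 1.11 and 0.59, adjusted p = 0.00121, 0.000678 and 0.0169), and under median scaling all 3 were lower, while under TMM scaling none was called. In SCID tumours Traf2 and Traf3 were higher as deposited (0.47 and 0.57, adjusted p = 0.0239 and 0.0323) and lower under median scaling, and Traf6 was not called (0.0988). The SCID calls of Traf2 were lost without line sample 1 or 2 (0.0867 and 0.159). Those of Traf3 were lost without line sample 1 or 2 (0.0616 and 0.251) or SCID tumour 2, 3 or 4 (0.0589, 0.0591 and 0.0536), and the WT call of Traf6 without line sample 1 or 2 (0.0746 and 0.0891).

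**Figure D4:**
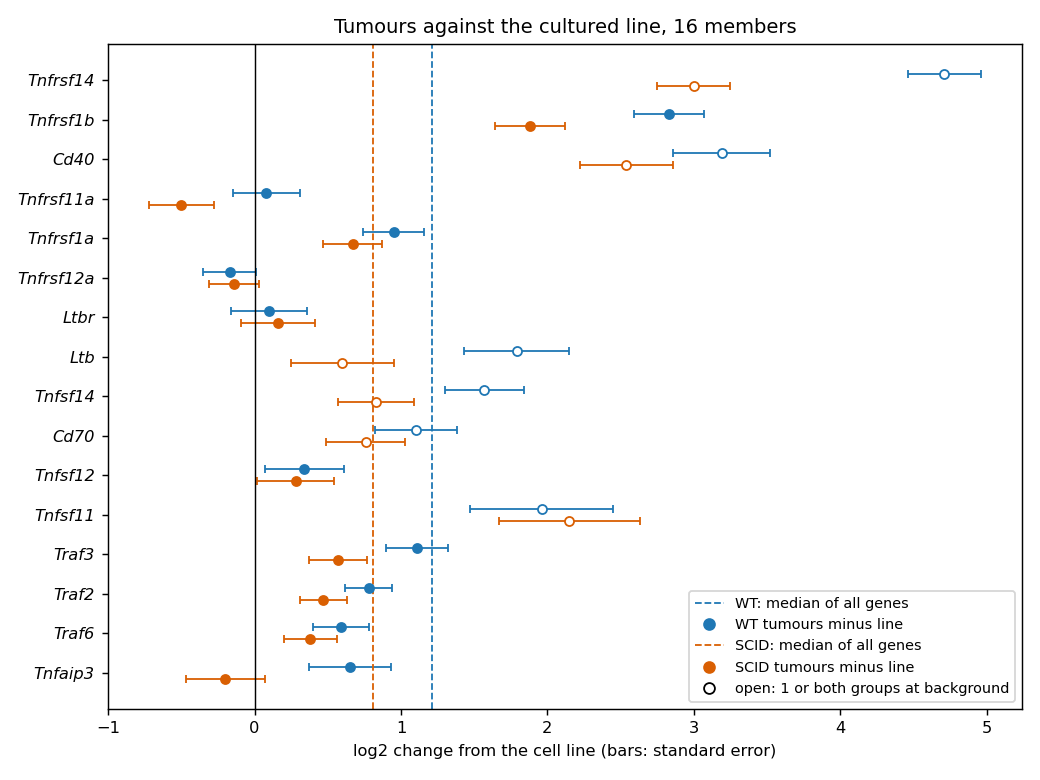
Log2 change from the line to WT (blue) and SCID (orange) tumours, with standard errors, of the 16 members above background in at least 1 sample, as deposited. Open symbols have 1 or both groups at background and dashed lines are the medians of all genes (1.21 and 0.81). Tnfrsf14 lies far above these medians in both hosts, while Tnfrsf12a and Ltbr lie between -0.17 and 0.16 as deposited; scaling to the median gene shifts all changes to the left, and those of Tnfrsf1a and the Traf genes turn negative.

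Ltb, Tnfsf14, Tnfsf11 and Cd70 were at background in the line. Ltb was at 3.52 and 3.93 there and at least 1.70-fold higher in WT tumours (limma adjusted p = 0.00106). Tnfsf14 was at 4.16 and 4.17 in the line and at least 1.98-fold higher in WT tumours (0.000374). In SCID tumours, of which 1 of 5 was above background, Tnfsf14 was called higher (log2 change 0.83, adjusted p = 0.0201), and this call was lost without line sample 1 or 2 (0.0992 and 0.0943) and with TMM scaling (0.11, 0.704). Tnfsf11, at 2.69 and 3.38 in the line, was called higher in WT (1.96, adjusted p = 0.00432) and SCID tumours (2.15, 0.00278), and Cd70, at 3.84 and 3.93, in WT tumours (1.10, 0.0041). No fold is given for these calls or for Tnfsf14 in SCID tumours, since the tumours' mean lay below the mean of their own background levels. The WT call of Tnfsf11 was lost without line sample 1 (0.0544). TMM scaling ended the WT calls of Ltb (0.76, adjusted p = 0.0514), Tnfsf14 (0.54, 0.0571), Tnfsf11 (0.92, 0.113) and Cd70 (0.07, 0.811). Under median scaling Ltb, Tnfsf14 and Cd70 were lower in WT tumours than in the line, and the change of Tnfsf11 was -0.65 without a call. Tnfsf12 was above background in the line, with 5.79 and 5.36. It was not called in either host as deposited (log2 change 0.34 in WT and 0.28 in SCID tumours). TMM scaling called it lower in WT tumours (-0.70, adjusted p = 0.022), and median scaling in both hosts (-2.27 in WT and -1.72 in SCID tumours).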

How the data were processed

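Total RNA of the 12 samples was extracted with the PureLink RNA Mini Kit and read on a NanoString nCounter instrument, per the labels; the series title names a mouse immune panel for cancer. The authors deposited log2 normalised values for 750 genes and a value table of linear normalised signal for 749; the log2 values equal the log2 of that signal. The authors' software, normalisation genes and background treatment: not given in the sources used here. Within each sample every value was a whole multiple of 1 step, within 0.02 counts, and dividing by it gave probe counts. Groups came from the titles, with 0 columns outside the series.

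A value was at background at or below 38.25 counts times the sample's step, the 95th percentile of 33 T and B cell genes in the line. Tigit, with 269 counts in a line sample, was kept in this list, so the level may be high. Where 1 group was wholly at background, the fold is a bound ("at least") from the brighter mean over the dimmer group's background or, if higher, its own value, and is printed only where the brighter mean is above its own background. For SCID against WT tumours, limma 3.58.1 was fitted to the tumours' log2 values (two-sided, no covariate, filter or pseudocount), and tumours with the line in 1 fit of all 3 groups, with Benjamini-Hochberg adjustment over 750 genes. Intervals are at 95%. The fits were tested on simulated data. Alternatives covered scaling, low values, pseudocounts, the variance model, blocks and leaving out samples.

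All members are named. Values in every sample are given for members called and above background in some sample, or above background in all of 1 group, and the other members get ranges. Cd27, Tnfsf13b and Cd40 were added to these after their values were seen. Cd40 meets the rule, while Cd27 and Tnfsf13b do not and are given for tumours only. Pathway genes named are those called in SCID against WT tumours. The members, gene lists and tests were chosen with earlier results of these data known. All 30 symbols were current in RefSeq (GRCm38.p6).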

Additional observations from a re-analysis of the deposited data

Results flagged for a closer look

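Among 60 sets of values (30 members in the 2 tumour groups, with WT tumours 2 and 3 averaged), 3 held a sample far from the others by Dixon's criterion, and chance gives about 1 in 20. Ltbr in WT tumour 1 was at 9.53, below the other WT values of 10.13 to 10.21, or 10.08 to 10.21 with all tumours apart. Lta in WT tumour 5 was at 4.50 against 3.41 to 3.46, but the averaged tumours had 2.76 and 4.15, so this gap rests on the averaging. Tnfrsf8 in WT tumour 4 was at 2.45 against 4.04 to 4.33. Lta and Tnfrsf8 were at background in all WT tumours.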

How the results depend on the processing

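For SCID against WT tumours, the count of 7 lower members became 1 with median scaling and 2 with TMM scaling. It became 4 with values raised to background, where Cd27 and Tnfsf13b, at background in all tumours, could not stay called. When samples were left out, the count ranged from 3 to 8. That of higher members, 0 as reported, became 1 with median scaling. The count of 4 lower pathway genes became 0 with median and with TMM scaling, 2 with values raised to background, 1 on unscaled counts (an alternative added after seeing the data), 7 with WT tumours 2 and 3 apart and 8 in tumours whose title numbers start with 16, and 1 to 7 when samples were left out; 1 pathway gene was higher with median scaling. Against the line, the 21 members higher in WT tumours became 1 with median scaling, 4 with TMM, and 10 on unscaled counts and with genes filtered on background, which leaves fewer genes tested; the 18 higher in SCID tumours became 1, 7, 8 and 8 (9 to 19 when samples were left out). Members lower than the line, 0 as reported, became 24 (WT) and 22 (SCID) with median scaling, 4 and 3 with TMM, and 1 and 2 on unscaled counts; in SCID tumours 1 was lower with widely expressed gene scaling and 1 with values raised to background. Members above background in every line, WT and SCID sample were 4, 3 and 3 with the background at its highest count, that of Tigit.

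Of the 30 members, called or not, the sign of the change against the line turned in 25 (WT) and 24 (SCID) with median scaling, 13 and 11 with TMM, 2 and 0 with widely expressed gene scaling, and 5 and 6 on unscaled counts. Leaving out members with both groups at background and changes called neither as deposited nor after rescaling, those that turned were, with median scaling in WT tumours, Cd70 (-1.50), Ltb (-0.81), Ltbr (-2.51), Tnfaip3 (-1.96), Tnfrsf11a (-2.53), Tnfrsf1a (-1.66), Tnfsf11 (-0.65), Tnfsf12 (-2.27), Tnfsf14 (-1.03), Traf2 (-1.82), Traf3 (-1.50) and Traf6 (-2.01), and in SCID tumours Ltbr (-1.84), Tnfrsf1a (-1.34), Tnfrsf1b (-0.12), Tnfsf12 (-1.72), Tnfsf14 (-1.17), Traf2 (-1.53), Traf3 (-1.43) and Traf6 (-1.62). With TMM these were Ltbr (-0.94), Tnfrsf11a (-0.96), Tnfrsf1a (-0.09), Tnfsf12 (-0.70), Traf2 (-0.25) and Traf6 (-0.44) in WT, and Tnfrsf1a (-0.05), Traf2 (-0.25) and Traf3 (-0.14) in SCID tumours. On unscaled counts they were Traf6 (-0.05) in WT and Traf2 (-0.07) in SCID tumours. Apart from scaling, the cause was not tested.

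With the replicate number as a block, 8 members were lower, with Traf3 added (adjusted p = 0.0402). The replicate numbers are not shown to pair the tumours: the correlations of same-numbered tumours' deviations ran from -0.412 to 0.242. The numbers shared in the titles were also fitted as a random block, with WT tumours 2 and 3 apart. In that fit 8 members were lower. A count model on the recovered counts was not run. Depth limits the 14 members at background, whose changes rest on few counts.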
